A study of Mus musculus with 27 samples.

Results

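Gene expression after 24 h of PTHrP was set directly against expression after 24 h of PTH in KUSA4b10 cells, a line of mouse marrow stromal cells. The comparison took the 6 arrays whose titles name these ligands at that time, 3 for PTHrP and 3 for PTH, out of 27 in the series. PTHrP was given as residues 1 to 141 at 20 nM and PTH as residues 1 to 34 at 10 nM, so ligand, peptide length and dose differed together and cannot be told apart. The labels name no species for either peptide. The 3 untreated arrays of 24 h are given last, as the background. The same comparison at 6 h and at 1 h used other arrays, 6 at each time.

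PTH, parathyroid hormone, and PTHrP, parathyroid hormone-related protein, act on the same G protein-coupled receptor, the product of Pth1r. In cells of the osteoblast lineage the receptor raises cAMP and activates protein kinase A, and it can also signal through Gq. PTH is an endocrine hormone of calcium balance, while PTHrP acts mainly as a local factor in bone and cartilage. In cultured osteoblasts both are known to lower genes of matrix and mineral formation and to raise genes that recruit osteoclasts, and the study's title asks about ephrin B2 (Efnb2) in this setting.

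All values below are log2 intensities of 1 probe set per gene unless a difference is named. Differences are PTHrP minus PTH at 24 h on the log2 scale, with the standard error (SE) of the fit, and adjusted p is limma's two-sided moderated test after Benjamini-Hochberg adjustment over 15711 tested genes, with a threshold of 0.05. No label states whether the 3 replicates of a group came from separate cultures. The p-values therefore reflect the spread between arrays of a group, pooled over the 9 groups of the 27 arrays, and that spread may be technical. The 6 arrays had median intensities of 83.2 to 88.2 on the linear scale. Across genes, which are not independent replicates, log2 values correlated at 0.9954 to 0.9967 within PTHrP, at 0.9920 to 0.9961 within PTH and at 0.9925 to 0.9953 between the ligands. The 3′ over 5′ probe set difference of Actb, a sign of RNA integrity, was 0.44 ± 0.01 with PTHrP and 0.42 ± 0.01 with PTH (SD, n = 3 each; exact permutation p = 0.1, the smallest that 3 against 3 can give). That of Gapdh was -0.22 ± 0.01 with PTHrP and -0.21 ± 0.01 with PTH (exact permutation p = 0.5). Whether the Actb difference bears on any gene below was not tested.

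Defining markers of the labelled cell type were bright. Over 11 tested markers of marrow stroma and the osteoblast lineage, the summed linear intensity ran from 56286 to 64947 with PTHrP, from 49796 to 52768 with PTH and from 68477 to 69257 in untreated cells, and their median log2 level was 11.4 with PTHrP and 11.3 with PTH. Of these markers Sp7, Col1a1 and Pth1r were higher with PTHrP, and what the summed level had to do with the results below was not tested. The 8 tested macrophage and blood markers summed to at most 1067 with PTHrP and 1170 with PTH, and the 8 endothelial markers to at most 521 with PTHrP and 594 with PTH. None of the tested markers of adipocytes (9 genes), chondrocytes (10), skeletal muscle (7), macrophages and blood (8) or endothelium (8) passed the test, although 1 adipocyte marker did without PTHrP replicate 2. Fabp4, an adipocyte fatty acid-binding protein, was uneven within PTHrP, at 10.85, 9.15 and 11.17, against 10.12, 9.63 and 9.27 with PTH. Fewer cells of a type and less RNA per cell cannot be told apart in such bulk samples.

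After 24 h, 182 genes differed between the ligands, 1.16% of those tested. Of these, 132 were higher with PTHrP (0.84% of tested genes) and 50 were lower (0.318%), so 72.5% of the differences ran upward. Most were small: the median size was 0.49, 86 genes exceeded 0.5, and 14 genes were over 2-fold higher and 2 over 2-fold lower with PTHrP. Across all tested genes the median difference was -0.01 and 47.2% were above 0. These shares over all tested genes are the background for each list count below. Members of a list were read on the same arrays and are not independent. The 3 PTHrP arrays lay clear of the 3 PTH arrays for 181 of the 182 genes, Ddit4 being the exception, and for 12.4% of all tested genes. The number of genes depended on single arrays. It was 77 without PTHrP replicate 3 (64 higher, 13 lower), 101 without PTH replicate 2 (64 higher, 37 lower) and 96 without PTH replicate 3 (68 higher, 28 lower). The balance also moved: without PTHrP replicate 1, 103 were higher and 20 lower, without PTHrP replicate 2, 93 and 53, and without PTH replicate 1, 168 and 25, so the upward share ran from 63.4% to 87.1% over these 6 fits. With only the 6 compared arrays in the fit, 83 genes passed.

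**Figure D1:**
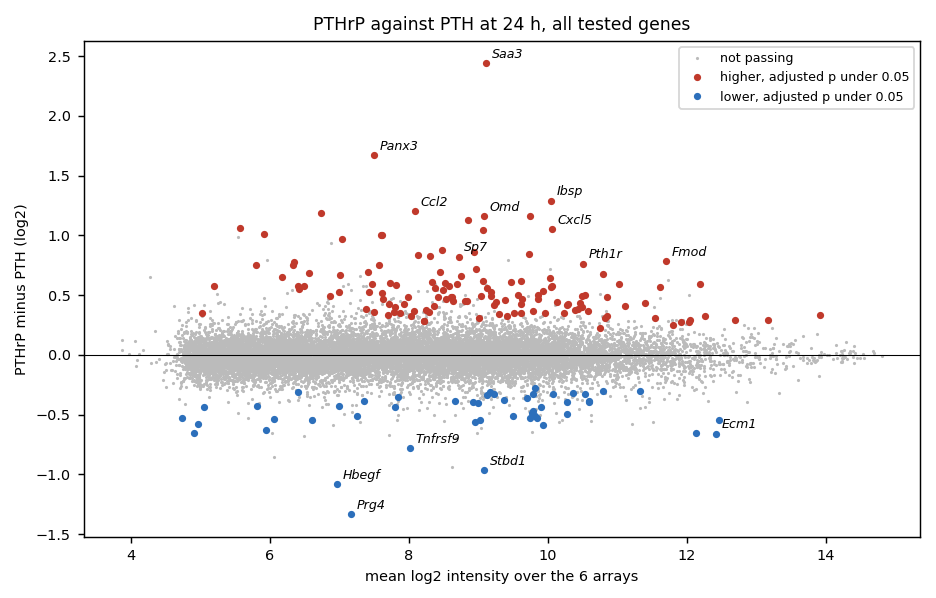
Difference between PTHrP and PTH at 24 h (log2, y axis) against the mean log2 intensity over the 6 arrays (x axis), 1 point per tested gene. Red points are the 132 genes higher with PTHrP and blue points the 50 lower ones at an adjusted p under 0.05; grey points did not pass. Saa3 stands highest at 2.44 and Prg4 lowest at -1.33, and passing genes occur at dim and bright levels alike.

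The gene with the largest difference was Saa3, an acute phase serum amyloid A protein made outside the liver. Saa3 read 10.67, 10.13 and 10.20 with PTHrP, against 7.88, 7.89 and 7.90 with PTH and 8.41, 8.26 and 7.63 in untreated cells. Every PTHrP array lay more than 2 units above every PTH array, and the PTH arrays lay within the untreated range. The difference was 2.44 ± 0.29 (SE, n = 3 each; limma adjusted p = 3.2e-05), a 5.43-fold higher intensity with PTHrP. Against untreated cells of 24 h, 6.1% of tested genes differed with PTHrP (3.09% higher, 3.02% lower) and 11.6% with PTH (5.69% higher, 5.96% lower). Saa3 differed from untreated cells by 2.24 ± 0.29 with PTHrP (limma adjusted p = 8.7e-06) and by -0.20 ± 0.29 with PTH (limma adjusted p = 0.78); these comparisons use the same PTHrP and PTH arrays, so they are given side by side only. At 6 h the Saa3 difference between the ligands was 0.86 ± 0.29 and did not pass (limma adjusted p = 0.075).

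Promoters of 5 genes are shown here as a selection. They belong to genes whose values are described in this text and hold a motif of a factor known in acute phase, cAMP or NF-kappa B responses. Other described genes met the same description and are not printed, among them Mest (C/EBP and kappa B), Slc12a1 (kappa B), C1s1 and Abcc4 (C/EBP). The 250 bases before the transcription start come from RefSeq (GRCm38.p6), printed 5′ to 3′ on the gene's strand in lower case, with matched motifs in capitals. Motifs were searched on both strands: C/EBP as TTGCNNAA, the cAMP response element (CRE) as TGACGTCA, kappa B as a consensus of 10 letters, AP-1 as TGANTCA and RUNX as TGTGGTT. Saa3 lies at chr7:46715677-46715926 on the minus strand and holds a C/EBP match at position -99 from the start. Of the 2 RefSeq promoters of Cp, the one at chr3:19956999-19957248 on the plus strand has a C/EBP match at -70. The Fmod promoter, at chr1:134037004-134037253 on the plus strand, has one at -125. Daam2, at chr17:49564338-49564587 on the minus strand for the first of 2 promoters, holds a CRE match at -27. Tnfrsf9, at chr4:150927749-150927998 on the plus strand for the second of 2 promoters, has a kappa B match at -43 and an AP-1 match at -15.
Saa3: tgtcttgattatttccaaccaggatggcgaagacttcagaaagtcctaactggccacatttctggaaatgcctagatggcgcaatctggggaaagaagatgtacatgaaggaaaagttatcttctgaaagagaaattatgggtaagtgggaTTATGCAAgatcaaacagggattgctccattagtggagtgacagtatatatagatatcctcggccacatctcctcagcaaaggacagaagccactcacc
Cp: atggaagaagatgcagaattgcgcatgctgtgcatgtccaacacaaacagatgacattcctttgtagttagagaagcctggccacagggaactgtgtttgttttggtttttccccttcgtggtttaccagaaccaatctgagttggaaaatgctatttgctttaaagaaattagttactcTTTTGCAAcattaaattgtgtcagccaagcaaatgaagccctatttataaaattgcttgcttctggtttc
Fmod: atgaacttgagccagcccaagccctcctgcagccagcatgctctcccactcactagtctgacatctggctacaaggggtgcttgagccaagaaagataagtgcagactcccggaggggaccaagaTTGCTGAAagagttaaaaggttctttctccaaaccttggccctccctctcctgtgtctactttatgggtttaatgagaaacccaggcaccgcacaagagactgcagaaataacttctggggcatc
Daam2: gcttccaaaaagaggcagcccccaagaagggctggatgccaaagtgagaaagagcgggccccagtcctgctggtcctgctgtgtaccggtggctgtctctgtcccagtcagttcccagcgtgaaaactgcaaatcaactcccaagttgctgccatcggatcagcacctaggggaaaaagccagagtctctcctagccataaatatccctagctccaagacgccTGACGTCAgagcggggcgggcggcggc
Tnfrsf9: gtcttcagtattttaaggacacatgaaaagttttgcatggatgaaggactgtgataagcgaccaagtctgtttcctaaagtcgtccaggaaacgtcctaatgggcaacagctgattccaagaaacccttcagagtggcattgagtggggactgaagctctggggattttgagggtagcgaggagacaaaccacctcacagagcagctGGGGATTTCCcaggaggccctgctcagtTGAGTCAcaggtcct

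Across the tested genes, 12557 had a RefSeq promoter. The C/EBP letters were found for 9.22% of them, for 21 of the 98 genes higher with PTHrP that had a promoter (21.4%) and for 3 of 42 lower ones (7.14%). The CRE letters were found for 2.68% of tested genes, for 1 higher gene, Daam2, and for 0 lower genes. Kappa B letters stood at 1.68% of tested genes, 1.02% of higher and 4.76% of lower ones. The last were Slc12a1, a dim gene, and Tnfrsf9. AP-1 letters stood at 6.16%, 4.08% and 9.52% in the same order, and RUNX letters at 4.2%, 4.08% and 2.38%. These are matches of letters in a window, described without a test; they show no binding.

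Saa3 belonged to a list of acute phase and NF-kappa B feedback genes. Of 16 tested, 2 were higher with PTHrP, none was lower, and the group's median difference was 0.13. The other gene that passed was Cp, the copper-binding ferroxidase ceruloplasmin, which read 11.46, 11.32 and 11.20 with PTHrP, against 10.78, 10.66 and 10.76 with PTH and 10.81, 10.63 and 10.54 in untreated cells. Its difference was 0.59 ± 0.10 (limma adjusted p = 0.0017), and the PTH arrays again lay beside the untreated ones. Lcn2, the siderophore-binding lipocalin, read 6.69, 5.26 and 6.17 with PTHrP, against 5.06, 5.26 and 4.81 with PTH, and its difference of 0.99 ± 0.27 did not pass (limma adjusted p = 0.09). PTHrP replicate 2 was level with PTH for Lcn2.

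Chemokines attract leukocytes to tissue. Of 16 tested chemokine genes, 3 were higher with PTHrP, none was lower, 15 had a difference above 0, and the median was 0.18. Over all tested genes 0.84% were higher and 47.2% had a difference above 0. Ccl2, the monocyte attractant MCP-1, read 9.06, 8.51 and 8.50 with PTHrP, against 7.55, 7.46 and 7.44 with PTH and 7.75, 7.44 and 7.32 in untreated cells. The Ccl2 difference was 1.20 ± 0.16 (limma adjusted p = 9.5e-05), with 1.19 ± 0.16 for PTHrP over untreated cells and -0.01 ± 0.16 for PTH over untreated cells. Its neighbour in function Ccl7, another monocyte attractant, read 8.28, 7.72 and 7.82 with PTHrP, against 7.39, 7.13 and 7.05 with PTH. That difference was 0.75 ± 0.14 (limma adjusted p = 0.0042).

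Cxcl5, a neutrophil attractant, read 10.85, 10.46 and 10.44 with PTHrP, against 9.52, 9.46 and 9.61 with PTH and 8.21, 8.62 and 8.24 in untreated cells. Here both ligands lay above untreated cells, by 2.23 ± 0.26 with PTHrP and 1.17 ± 0.26 with PTH. The difference between the ligands, 1.05 ± 0.26, just passed (limma adjusted p = 0.04) and was lost when any 1 of the 6 arrays was left out, with an adjusted p of up to 0.2. Cxcl5 kept its call with only the 6 compared arrays and with only the 24 h arrays (limma adjusted p = 0.00177 and 0.00257). Il12a, a subunit of the cytokine interleukin 12, was also higher with PTHrP, at 6.20, 6.37 and 6.70, against 5.39, 5.61 and 5.23 with PTH (difference 1.01 ± 0.13, limma adjusted p = 8.9e-05). Interferon-stimulated genes had a median difference of 0.14 over 18 tested genes, and none passed.

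**Figure D2:**
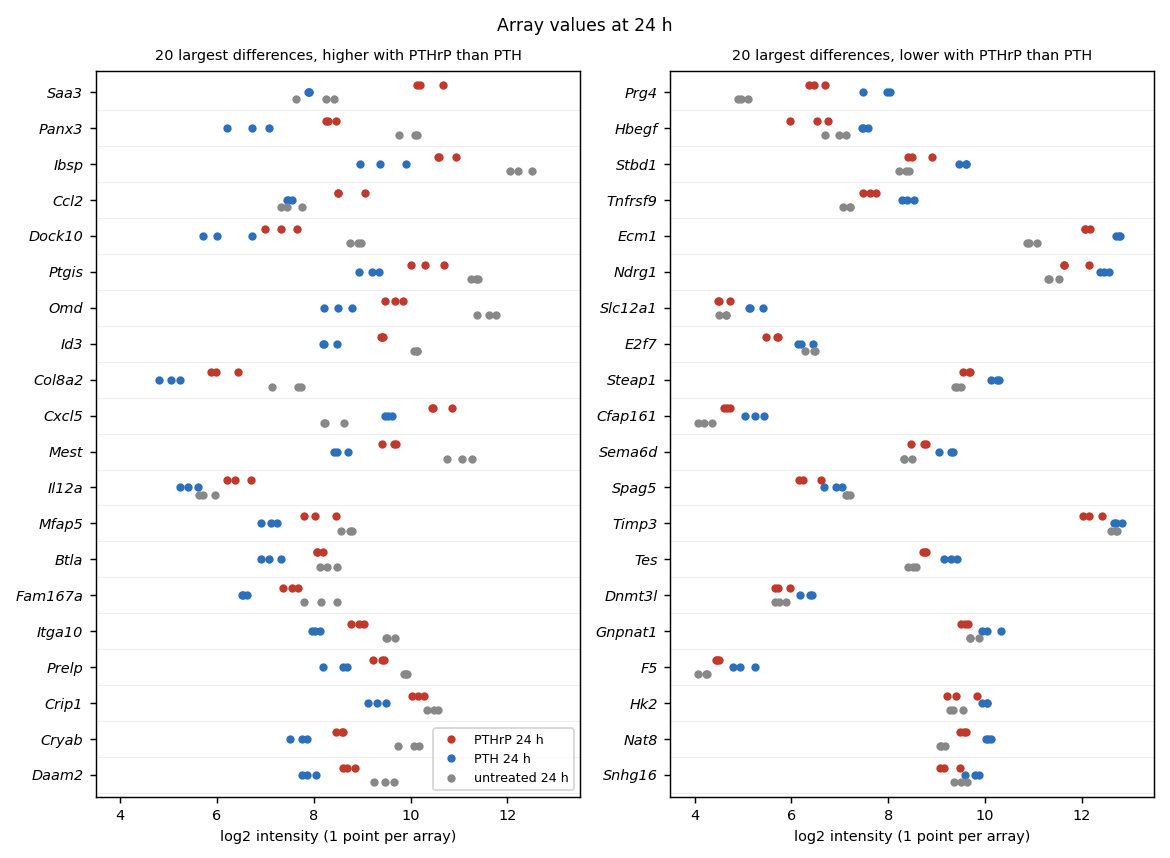
Log2 intensity (x axis) on each array at 24 h for the 20 genes with the largest differences upward (left) and downward (right) among those whose groups did not overlap. Red points are the 3 PTHrP arrays, blue the 3 PTH arrays and grey the 3 untreated arrays. Saa3 and Ccl2 have PTH points beside the untreated ones, whereas Panx3, Ibsp, Ptgis and Omd have PTHrP points between PTH and untreated.

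Genes of bone matrix and mineral differed upward where they passed. Of 26 tested osteoblast and osteocyte products, 7 were higher with PTHrP and none was lower, 26.9% of the group. In this list 22 had a difference above 0, with a median of 0.25. Over all tested genes 0.84% were higher, 0.318% were lower and 47.2% had a difference above 0. The median over the list against untreated cells was -0.13 with PTHrP and -0.60 with PTH. Panx3, a pannexin channel of osteoblasts and prehypertrophic chondrocytes, read 8.30, 8.25 and 8.46 with PTHrP, against 7.07, 6.21 and 6.72 with PTH and 10.09, 9.76 and 10.14 in untreated cells. The Panx3 difference was 1.67 ± 0.16 (limma adjusted p = 1.7e-06), and a further probe set of this gene gave -0.01.

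Ibsp, bone sialoprotein, read 10.56, 10.59 and 10.93 with PTHrP, against 9.91, 8.95 and 9.36 with PTH and 12.51, 12.06 and 12.21 in untreated cells. Its difference was 1.29 ± 0.17 (limma adjusted p = 7.9e-05). Omd, osteomodulin, a keratan sulphate proteoglycan of mineralised matrix, read 9.47, 9.84 and 9.67 with PTHrP, against 8.78, 8.21 and 8.50 with PTH and 11.37, 11.61 and 11.76 in untreated cells. In both genes PTHrP arrays stood between the PTH and untreated arrays with no overlap. Omd differed by 1.16 ± 0.16 (limma adjusted p = 0.0002). Fam20c, the kinase that phosphorylates secreted matrix proteins, differed by 0.61 ± 0.09 and Cdh2, N-cadherin, by 0.54 ± 0.10, and Col1a1, the main chain of type I collagen, by 0.33 ± 0.07 (limma adjusted p = 0.00046, 0.0039 and 0.015). Col1a1 was lost without PTHrP replicate 3 or PTH replicate 2, with a limma adjusted p of up to 0.158. Pth1r, described below, was the remaining gene of the list that passed.

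Sp7, osterix, the transcription factor needed for osteoblast formation, read 8.91, 9.04 and 9.42 with PTHrP, against 8.44, 8.03 and 8.44 with PTH and 10.13, 10.18 and 10.26 in untreated cells. It differed by 0.82 ± 0.11 (limma adjusted p = 0.0001), and was the 1 of 15 tested osteoblast transcription factors that passed; 2 passed without PTH replicate 1. Mef2c, a factor that acts on Sost and on hypertrophy, differed by 0.93 ± 0.28 without passing (limma adjusted p = 0.12), and PTH replicate 2, at 5.69, was its lowest array. Alpl, tissue-nonspecific alkaline phosphatase, read 11.13, 11.53 and 11.55 with PTHrP, against 11.34, 11.20 and 11.26 with PTH. The groups overlapped, the difference of 0.14 ± 0.08 did not pass (limma adjusted p = 0.7), and its 95% interval, not adjusted for the number of genes, ran from -0.03 to 0.31. Dmp1, an osteocyte matrix protein, fell near the floor with both ligands, at 4.23, 4.35 and 5.22 with PTHrP, against 3.99, 4.13 and 3.73 with PTH and 9.54, 7.99 and 8.15 in untreated cells. Its difference of 0.65 did not pass (limma adjusted p = 0.58) and had an interval from -0.04 to 1.35.

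The receptor gene itself differed. Pth1r read 10.77, 10.91 and 10.99 with PTHrP, against 10.38, 9.99 and 10.02 with PTH and 11.05, 10.83 and 10.95 in untreated cells. The PTHrP arrays lay within the untreated range or just below it, and all 3 PTH arrays lay under both. The difference was 0.76 ± 0.09 (limma adjusted p = 3.7e-05), a 1.7-fold higher intensity with PTHrP, and it was 0.72 ± 0.09 at 6 h (limma adjusted p = 3.4e-05). Pth1r was the 1 of 23 tested receptor and proximal signalling genes that passed. Of 26 tested cAMP and receptor feedback genes 1 passed, Ramp2, a receptor activity-modifying protein, at 0.43 ± 0.11 (limma adjusted p = 0.049). The Ramp2 call was lost in 5 of the 6 fits that left out 1 array, the exception being the fit without PTHrP replicate 1. Among 25 tested immediate early genes, Jun, an AP-1 subunit, and Klf2, a Krüppel-like factor, were higher, by 0.56 ± 0.13 and 0.57 ± 0.14, both at a limma adjusted p of 0.037. Each of these 2 calls was lost in 5 of the same 6 fits: Jun held without PTH replicate 1 and Klf2 without PTHrP replicate 1. The list ran both ways, from -0.94 to 0.57, with 17 differences above 0 and 8 below. With only the 6 compared arrays fitted, Klf2 and Atf3, another member, passed and Jun did not (limma adjusted p = 0.0279, 0.0101 and 0.125). The same held with only the 24 h arrays (limma adjusted p = 0.00836, 0.0158 and 0.0605).

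Small leucine-rich proteoglycans, which bind collagen fibrils, and other matrix glycoproteins differed in both directions. Of 29 tested, 6 were higher with PTHrP and 1 was lower, 24.1% of the group, and the median was 0.06. Fmod, fibromodulin, read 11.92, 12.18 and 12.18 with PTHrP, against 11.23, 11.17 and 11.51 with PTH and 12.62, 12.83 and 12.67 in untreated cells. The Fmod groups were well apart, with a difference of 0.78 ± 0.08 (limma adjusted p = 1e-05). Prelp, which anchors basement membranes, differed by 0.86 ± 0.12, and Mfap5, a microfibril protein, by 1.01 ± 0.16. Omd belongs here too. Lum, lumican, at 0.59 ± 0.14, was lost without PTHrP replicate 2 or 3 or PTH replicate 2 or 3, and Thbs1, thrombospondin 1, at 0.49 ± 0.10, without PTHrP replicate 3 or PTH replicate 2. Decorin, Dcn, differed by 0.47 ± 0.13 without passing (limma adjusted p = 0.095).

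Prg4, lubricin, the joint lubricant, was the member that ran the other way and the largest difference downward. It read 6.46, 6.36 and 6.69 with PTHrP, against 7.98, 7.48 and 8.04 with PTH and 4.90, 4.96 and 5.11 in untreated cells. The 3 groups were separate, with PTHrP again between PTH and untreated. The Prg4 difference was -1.33 ± 0.18 (limma adjusted p = 8.5e-05), a 2.51-fold higher intensity with PTH. Of 31 tested collagen genes and collagen-modifying enzymes, 2 were higher, Col1a1 and Col8a2, a short-chain collagen, which differed by 1.06 ± 0.17 (limma adjusted p = 0.00073). This count was 1 without PTHrP replicate 3 or PTH replicate 2 and 3 without PTHrP replicate 2.

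Other proteins of matrix and adhesion differed as well. Ecm1, extracellular matrix protein 1, read 12.07, 12.17 and 12.06 with PTHrP, against 12.77, 12.71 and 12.79 with PTH and 11.07, 10.90 and 10.87 in untreated cells. Its spread was small, and the difference of -0.66 ± 0.08 passed (limma adjusted p = 3.2e-05). Itga10, a collagen-binding integrin chain, was higher by 0.88 ± 0.09 (limma adjusted p = 3.3e-06). Timp3, an inhibitor of matrix metalloproteinases, differed by -0.54 ± 0.13 (limma adjusted p = 0.045) and was the 1 of 20 tested proteases and inhibitors that passed. It held in 1 of the 6 fits without an array, that without PTHrP replicate 2, where the list's count was 2. The count was 1 without PTHrP replicate 3 or PTH replicate 2, from another member, and 0 in the other 3 fits.

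**Figure D3:**
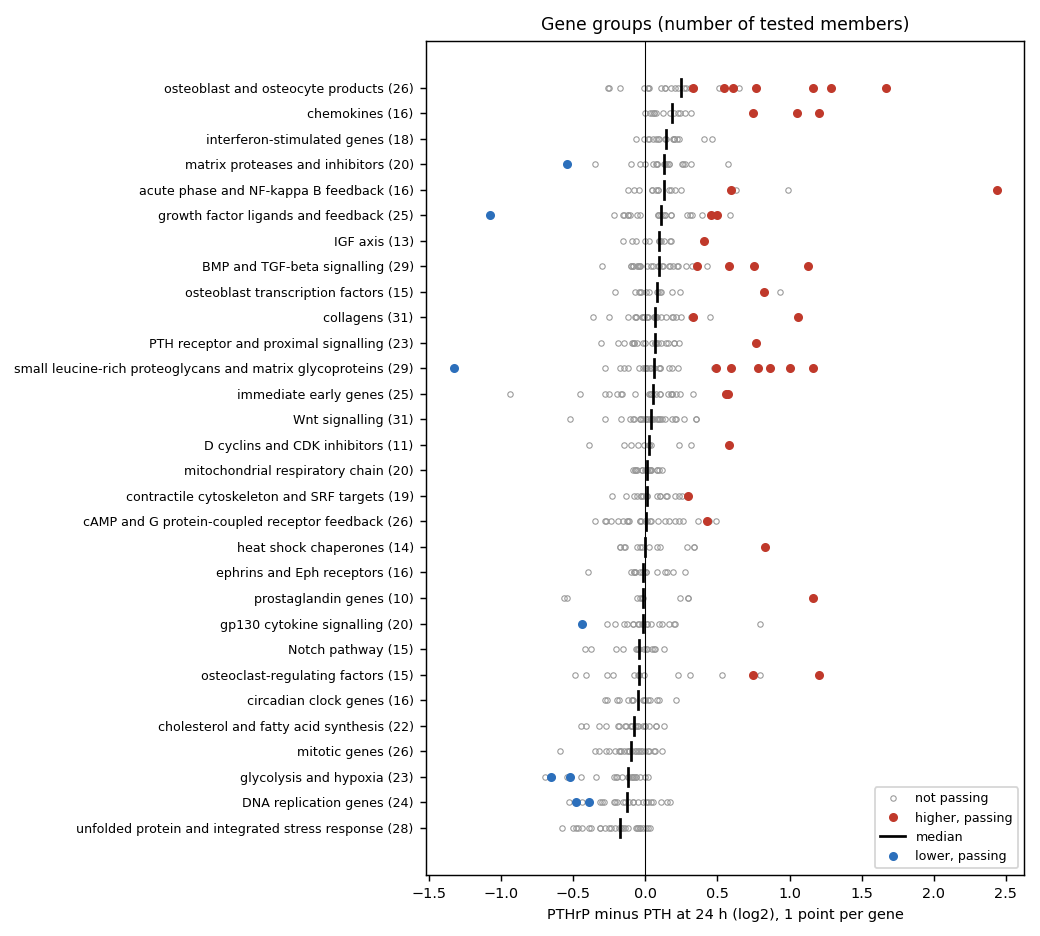
Difference between PTHrP and PTH at 24 h (log2, x axis) for each tested gene of 30 groups (rows, with the number of tested members), ordered by the group's median. Red and blue points passed upward and downward, open points did not pass, and black ticks are medians. Osteoblast and osteocyte products have the highest median, 0.25, and the unfolded protein and integrated stress response, with no passing gene, the lowest, -0.18.

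BMP and TGF-beta signals control osteoblast differentiation. Of 29 tested genes of these pathways, 4 were higher with PTHrP and none was lower, 10 had a negative difference, and the median was 0.09. Id3, an inhibitor of helix-loop-helix factors and a direct target of BMP signals, read 9.39, 9.43 and 9.41 with PTHrP, against 8.48, 8.20 and 8.18 with PTH and 10.14, 10.06 and 10.14 in untreated cells. The arrays of each group were close together, and the difference was 1.13 ± 0.10 (limma adjusted p = 1.6e-06). Ltbp2, a latent TGF-beta-binding family protein of microfibrils, differed by 0.75 ± 0.13, Fst, the activin antagonist follistatin, by 0.58 ± 0.12, and Chrd, the BMP antagonist chordin, by 0.36 ± 0.08. Only 2 of these 4 were called without PTHrP replicate 2, since Fst and Chrd were lost. Fst was also lost without PTH replicate 2, and Chrd without PTHrP replicate 3 or PTH replicate 1 or 3. None of 31 tested Wnt signalling genes passed, although Daam2, a formin that binds Dishevelled and was not on that list, was higher by 0.83 ± 0.10 (limma adjusted p = 3.2e-05).

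Growth factor ligands and feedback genes split. Hbegf, a ligand of the EGF receptor, read 5.97, 6.76 and 6.54 with PTHrP, against 7.46, 7.57 and 7.48 with PTH and 6.98, 7.12 and 6.69 in untreated cells. Its difference was -1.08 ± 0.13 (limma adjusted p = 3.2e-05), with no overlap between the ligands. Against untreated cells, Hbegf differed by -0.51 ± 0.13 with PTHrP and by 0.57 ± 0.13 with PTH (limma adjusted p = 0.014 and 0.0032), values that share arrays with the ligand comparison. The 2 of 25 tested genes that were higher were Pdgfa, a platelet-derived growth factor chain, at 0.49 ± 0.09, and Fgfr2, a fibroblast growth factor receptor, at 0.45 ± 0.08. Both calls were lost when only the 6 compared arrays were fitted (limma adjusted p = 0.0705 and 0.0586). Igfbp7 was the 1 of 13 IGF axis genes that passed, at 0.41 ± 0.08; it was lost without PTHrP replicate 1 or 3 or PTH replicate 3.

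Factors that act on osteoclasts were led by Ccl2 and Ccl7, the 2 of 15 tested that passed. The list's median difference was -0.05, with 6 differences above 0 and 9 below. Tnfsf11, the osteoclast-inducing ligand RANKL, was dim and uneven at 24 h, at 5.65, 5.74 and 4.51 with PTHrP, against 5.83, 5.45 and 6.08 with PTH and 4.93, 4.86 and 4.78 in untreated cells. The ligand groups overlapped, and the interval of its difference, -0.49, ran from -1.05 to 0.08. At 6 h the Tnfsf11 difference had been -1.12 ± 0.27 (limma adjusted p = 0.012). Tnfrsf11b, osteoprotegerin, the decoy receptor of RANKL, read 8.58, 8.35 and 8.63 with PTHrP, against 8.18, 7.65 and 8.13 with PTH and 9.82, 9.64 and 9.44 in untreated cells. Its arrays did not overlap, as for 12.4% of all genes, and the difference of 0.53 ± 0.14 narrowly missed the threshold (limma adjusted p = 0.062). With only the 6 compared arrays or only the 24 h arrays Tnfrsf11b was further from passing (limma adjusted p = 0.169 and 0.134). Tnfrsf9, the costimulatory receptor 4-1BB, differed by -0.78 ± 0.11 (limma adjusted p = 0.00027), at 7.62, 7.74 and 7.48 with PTHrP, against 8.38, 8.29 and 8.52 with PTH.

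Efnb2, ephrin B2, the membrane ligand in the study's title, read 8.46, 8.60 and 8.58 with PTHrP, against 8.99, 8.88 and 8.96 with PTH and 7.50, 7.70 and 7.71 in untreated cells. The PTHrP arrays lay below the PTH arrays without overlap, as for 12.4% of all genes. The difference, -0.40 ± 0.16, did not pass (limma adjusted p = 0.37), with an interval from -0.74 to -0.06 before any adjustment for the number of genes. The call depended on the arrays in the fit. With only the 24 h arrays Efnb2 passed (limma adjusted p = 0.0402), and with only the 6 compared arrays it did not (limma adjusted p = 0.0953). Against untreated cells, Efnb2 was higher with each ligand, by 0.91 ± 0.16 with PTHrP and by 1.31 ± 0.16 with PTH (limma adjusted p = 0.00052 and 2.8e-06), on the same arrays. None of 16 tested ephrins and Eph receptors passed between the ligands.

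Prostaglandin genes contributed Ptgis, prostacyclin synthase, which read 10.01, 10.68 and 10.30 with PTHrP, against 9.35, 9.21 and 8.94 with PTH and 11.34, 11.25 and 11.38 in untreated cells. It differed by 1.17 ± 0.14 (limma adjusted p = 3.2e-05) and was the 1 of 10 tested that passed. Ptgs2, the inducible cyclooxygenase, differed by -0.55 ± 0.21 without passing. In gp130 cytokine signalling, Socs2, a feedback inhibitor of cytokine receptors, differed by -0.44 ± 0.10 (limma adjusted p = 0.02) and was the 1 of 20 that passed; the call held only without PTHrP replicate 2 among the 6 fits. Il6 differed by 0.79 ± 0.37 and did not pass (limma adjusted p = 0.49). With only the 6 compared arrays fitted Il6 passed (limma adjusted p = 0.0203), but not with only the 24 h arrays (limma adjusted p = 0.236).

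Few cell cycle genes passed. Of 24 tested DNA replication genes, 2 were lower with PTHrP, with a median of -0.13. Cdt1, a licensing factor, read 9.63, 9.55 and 9.40 with PTHrP, against 10.08, 10.04 and 9.92 with PTH, and differed by -0.48 ± 0.08 (limma adjusted p = 0.0025, and 0.053 with only the 6 compared arrays). Mcm7, a subunit of the replicative helicase, differed by -0.39 ± 0.08 and was lost without PTHrP replicate 3 or PTH replicate 1. The count was 4 without PTHrP replicate 2 or PTH replicate 2 and 1 without PTHrP replicate 3 or PTH replicate 1. E2f7, an atypical E2F repressor, differed by -0.63 ± 0.10 (limma adjusted p = 0.00069), and none of 26 tested mitotic genes passed, against 1 without PTH replicate 2. Ccnd1, cyclin D1, was the 1 of 11 D cyclins and CDK inhibitors that passed, and was higher at 10.42, 10.29 and 10.33 with PTHrP, against 9.88, 9.76 and 9.66 with PTH and 11.19, 11.32 and 11.20 in untreated cells (difference 0.58 ± 0.08, limma adjusted p = 0.00027).

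Genes of glycolysis, hypoxia and the unfolded protein response had mostly negative differences, and few passed. Of 23 tested glycolysis and hypoxia genes, 22 had a negative difference, the median was -0.12, and 2 passed. Over all tested genes 47.2% had a difference above 0 and 0.318% passed downward. They were Ndrg1, a hypoxia-induced gene, at -0.66 ± 0.13, and Hk2, the inducible hexokinase, at -0.53 ± 0.11 (limma adjusted p = 0.0096 and 0.015). PTHrP replicate 2 was the PTHrP array nearest to PTH for both: Ndrg1 read 11.63, 12.14 and 11.64 with PTHrP, against 12.45, 12.55 and 12.37 with PTH. Without PTHrP replicate 2 the count was 5, and it was 0 without PTHrP replicate 1, PTHrP replicate 3 or PTH replicate 2. Car9, a carbonic anhydrase raised by hypoxia, had its highest PTHrP array in replicate 2 as well, at 7.95, 8.96 and 8.08 with PTHrP, against 8.90, 9.12 and 9.06 with PTH, and did not pass (limma adjusted p = 0.16).

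Of 28 tested genes of the unfolded protein and integrated stress response, 25 had a negative difference and none passed. Their median was -0.18, and over all tested genes 47.2% had a difference above 0. The farthest of the list was Trib3, a stress-induced pseudokinase, at -0.58 ± 0.35 (limma adjusted p = 0.7). With only the 6 compared arrays fitted, Trib3 and Slc7a5, another member, passed (limma adjusted p = 0.033 and 0.0308). Both also passed with only the 24 h arrays (limma adjusted p = 0.0102 and 0.00754). None of 22 cholesterol and fatty acid synthesis genes and none of 20 respiratory chain genes passed. Cryab, a small heat shock protein, was the 1 of 14 heat shock genes that passed, at 0.83 ± 0.12 (limma adjusted p = 0.00018), while a further probe set of the gene gave -0.08. Among contractile and SRF target genes, 1 of 19 passed, Cnn2, a calponin, at 0.30 ± 0.07, a call lost in 4 of the 6 fits without an array; the list's count was 2 without PTH replicate 1 and 0 without PTHrP replicate 2 or 3 or PTH replicate 2 or 3. None of 15 Notch pathway genes and none of 16 clock genes passed.

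The remaining genes of the 20 largest differences upward were Dock10, Mest, Btla, Fam167a and Crip1. Mest, an imprinted gene of mesoderm, read 9.41, 9.66 and 9.70 with PTHrP, against 8.72, 8.48 and 8.42 with PTH and 10.75, 11.06 and 11.26 in untreated cells. Its difference was 1.05 ± 0.12 (limma adjusted p = 3.2e-05). Dock10, a guanine nucleotide exchange factor, differed by 1.18 ± 0.28 but held in only 2 of the 6 fits without 1 array, those without PTHrP replicate 2 and PTH replicate 1. Btla, an inhibitory lymphocyte receptor, Fam167a and Crip1, a LIM domain protein, differed by 1.00 ± 0.17, 0.97 ± 0.15 and 0.85 ± 0.11.

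Downward, the remaining genes ranged from -0.97 for Stbd1, a glycogen-binding protein, to -0.51 for Snhg16, a noncoding RNA host gene. They were Stbd1, Slc12a1, Steap1, Cfap161, Sema6d, Spag5, Tes, Dnmt3l, Gnpnat1, F5, Nat8 and Snhg16. Slc12a1, a sodium, potassium and chloride cotransporter, was dim, at 4.51, 4.72 and 4.49 with PTHrP, against 5.14, 5.13 and 5.41 with PTH. Its 3 PTH arrays alone met the filter of 5 on 3 arrays, and no PTHrP array of 24 h reached 5. The group where it was high could thus bring it into the test, so its calls are described only. Of the 20 largest downward differences, 7 passed in all 6 fits that left out 1 array, namely Prg4, Hbegf, Tnfrsf9, Ecm1, Slc12a1, E2f7 and Cfap161. Of the 20 largest upward, 18 passed in all 6, all but Cxcl5 and Dock10. Without PTHrP replicate 3 alone, 14 of the 40 were lost, and without PTHrP replicate 1, 12 were. With only the 6 compared arrays fitted, Ndrg1, Sema6d, Spag5, Timp3, Dnmt3l, Gnpnat1, F5, Hk2 and Snhg16 were lost from the 40, and outside them Abcc4, Cdt1, Chek2, Chrd, Cnn2, Col1a1, Ddit4, Fgfr2, Fst, Igfbp7, Jun, Lum, Mcm7, Pdgfa, Ramp2, Socs2, Sod2 and Thbs1 were lost. Of the 40 genes, 17 had other probe sets above the intensity floor, and all of those ran the same way in 14, the exceptions being Panx3, Cryab and Gnpnat1.

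The same comparison on the 6 h arrays, which share none with those of 24 h, gave 1197 genes, 7.62% of those tested, with 699 higher (4.45%) and 498 lower (3.17%). Without 1 array of 6 h the count was 629 (PTH replicate 2), 711 (PTH replicate 3), 753 (PTHrP replicate 1) or 669 (PTHrP replicate 3). The balance turned without PTHrP replicate 1, to 328 higher and 425 lower, and without PTH replicate 1, to 498 higher and 537 lower, and it was 697 higher and 278 lower without PTHrP replicate 2. At 1 h none passed with limma, and 632 of 15711 genes had an unadjusted limma p under 0.05. That is a smaller share than the 0.05 awaited if no gene differed. Of the 132 genes higher with PTHrP at 24 h, 29 were also higher at 6 h, which is 22.0% of the 24 h list and 4.15% of the 6 h list. Of the 50 lower genes, 17 were also lower at 6 h, 34.0% of the 24 h list and 3.41% of the 6 h list. Both times use the fit's 1 estimate of spread per gene, so these overlaps are not between independent calls. The first group held Panx3, Ptgis, Pth1r, Sp7, Daam2, Ccnd1, Cdh2 and Pdgfa, and the second Prg4, Hbegf, Ecm1, Hk2, Socs2 and Tnfrsf9. Passing in opposite directions were C1s1 and Sod2, higher at 24 h and lower at 6 h, and Abcc4 and Chek2, the reverse. At 24 h the call of Chek2, a checkpoint kinase, was lost without PTHrP replicate 3 or PTH replicate 1 (limma adjusted p of up to 0.126) and that of Sod2 without PTHrP replicate 1 or PTH replicate 2 or 3. The calls of Abcc4 and Chek2 were also lost with only the 24 h arrays (limma adjusted p = 0.0782 and 0.0953), and those of Abcc4, Chek2 and Sod2 with only the 6 compared arrays (0.168, 0.236 and 0.0657), while C1s1 kept its call in these fits. Over all tested genes the 2 differences correlated at 0.22 (Pearson, n = 15711 genes of the same arrays, a description without a test).

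**Figure D4:**
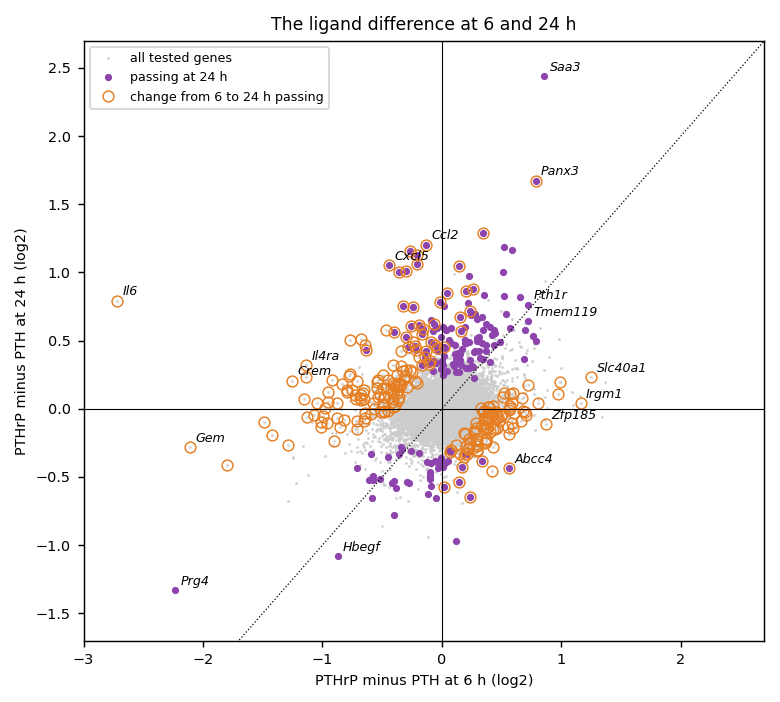
Difference between PTHrP and PTH at 24 h (y axis) against that at 6 h (x axis), both log2, 1 point per tested gene, with a dotted line of equality. Purple points passed at 24 h and orange rings mark genes whose difference changed from 6 to 24 h. Saa3 and Panx3 lie upper right, Prg4 and Hbegf lower left, and Il6 lies far left at -2.72 for 6 h and 0.79 for 24 h.

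The change of the ligand difference from 6 to 24 h was tested as an interaction and passed for 237 genes, 1.51% of those tested, 142 upward (0.904%) and 95 downward (0.605%). Among the genes that differed at 24 h it passed for 39 of the 132 higher and 10 of the 50 lower ones. The interaction contains the same 24 h difference, on the same arrays, that selected these genes. Their shares are raised by that selection and are given as a description only. Omd changed by 1.43 ± 0.23 and Id3 by 1.33 ± 0.15 (limma adjusted p = 0.0017 and 5e-05); at 6 h their differences had been -0.27 and -0.21 without passing. Panx3, already higher at 6 h by 0.79 ± 0.16, changed by a further 0.89 ± 0.22 (limma adjusted p = 0.0445). Pth1r changed by 0.04 ± 0.13 (limma adjusted p = 0.95), between differences of 0.72 at 6 h and 0.76 at 24 h. For Saa3 the change of 1.58 ± 0.41 did not pass (limma adjusted p = 0.053). The count of 237 was 138 without PTHrP replicate 1 of 24 h, 146 without PTHrP replicate 3 of 6 h and 144 without PTH replicate 2 of 6 h.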

How the data were processed

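Total RNA of KUSA4b10 cells was measured on 27 one-colour arrays in 9 groups of 3. Deposited intensity values are on a linear scale and come from RMA according to the submitters' processing notes; the series' design text says that they were normalized again for deposit, so they may differ from those published. Quantile steps in RMA hide a shift shared by most genes. No source used here gives the software version.

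From these values log2 was taken. Of 45101 probe sets, 64 controls were left out, 34945 had 1 gene symbol, 932 had several and 9160 were not listed in the annotation table and stay unnamed. By gene identifier 34741 matched RefSeq. Each of 18193 genes was represented by its brightest probe set over the 27 arrays, and 15711 genes that reached a log2 intensity of 5 on 3 or more arrays entered the test. limma 3.58.1 in R 4.3.3 (lmFit, eBayes) fitted 9 group means to all 27 arrays, with 18 residual and 5.54 prior degrees of freedom and a median SE of 0.10 for a difference. Precision is limited by the number of arrays. In simulated data for the 24 h comparison over 15711 genes, the fit called 65 of 100 genes changed by 0.5 (log2), 100 of 100 changed by 1 and 7 of 15511 unchanged ones. The simulated errors were normal, with each gene's residual spread, independent between genes and alike for every array. Real arrays can differ in quality and their errors can be linked between genes, so these rates may not hold for the real data. 0 array pairs were identical. Slide and scan batches were not analysed here, and some genes are not reported here.

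The members, gene lists and tests were chosen with earlier results of these data known. Genes named were the 20 largest differences each way with non-overlapping groups, the 5 largest changes each way from 6 to 24 h, 6 fixed genes (Efnb2, Pth1r, Tnfsf11, Tnfrsf11b, Il6, Dmp1), and of each list those that passed and up to 2 more; others, such as Ddit4, C1s1, Sod2 and Chek2, were chosen after their values were seen. Alternatives were other normalizations, filters, probe set rules, arrays in the fit, spread models, array weights, a 1.5-fold threshold, a replicate block and each array left out. Promoters came from RefSeq (GRCm38.p6).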

Additional observations from a re-analysis of the deposited data

Results flagged for a closer look

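The difference between PTHrP and PTH was tested for a change between 6 and 24 h, on arrays that the times do not share, and 237 genes passed limma's interaction test. Upward, the largest change was that of Il6, an inflammatory cytokine, by 3.51 ± 0.52 log2 units (limma adjusted p = 0.00073). Il6 read 8.05, 7.72 and 7.62 with PTHrP, against 10.12, 11.01 and 10.41 with PTH at 6 h, and 6.13, 6.64 and 6.27 with PTHrP, against 5.48, 5.72 and 5.46 with PTH at 24 h. The PTHrP arrays were thus all below the PTH arrays at 6 h and all above them at 24 h, where the difference alone did not pass. Gem, a small GTPase, changed by 1.83, Cxcl5 by 1.49, Il4ra, the interleukin 4 receptor chain, by 1.46 and Crem, a cAMP-responsive modulator, by 1.46 (limma adjusted p = 0.00091, 0.034, 6.4e-05 and 0.0088). For Gem, Il4ra and Crem the difference at 6 h was negative and passed (-2.11, -1.14 and -1.25), and that at 24 h did not pass (-0.28, 0.32 and 0.20). The Cxcl5 change was lost in 10 of the 12 fits that left out 1 PTHrP or PTH array of either time, with an adjusted p of up to 0.11, the exceptions being replicate 1 of each ligand at 6 h.

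Downward, Irgm1, an interferon-induced GTPase, changed by -1.12, Slc40a1, the iron exporter ferroportin, by -1.02, Abcc4, a transporter that exports cyclic nucleotides among others, by -0.99, Zfp185, a LIM domain protein, by -0.98 and Slc12a1 by -0.89. Their limma adjusted p-values were 0.00086, 0.00056, 6.4e-05, 0.00091 and 0.0015. Abcc4 read 6.96, 6.80 and 6.96 with PTHrP, against 6.27, 6.30 and 6.48 with PTH at 6 h, and 7.54, 7.55 and 7.64 with PTHrP, against 8.24, 7.82 and 7.96 with PTH at 24 h. It passed in opposite directions at the 2 times, with differences of 0.56 ± 0.08 at 6 h and -0.43 ± 0.08 at 24 h. The 24 h call was lost with only the 24 h arrays (limma adjusted p = 0.0782) or only the 6 compared arrays (limma adjusted p = 0.168). For Irgm1, Slc40a1 and Zfp185 the 6 h difference was positive and passed, and that of 24 h did not pass. Slc12a1 was dim, with at most 5.41 on any PTHrP or PTH array of 6 or 24 h.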

How the results depend on the processing

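For the 40 genes with the largest differences no alternative reversed the direction, and 25 lost the call in at most the 1.5-fold test, which left 2 genes, Saa3 and Panx3, in place of 182. At 24 h the count was 283 with cyclic loess (193 higher, 90 lower), 83 with only the groups compared, 1273 with array weights (795 higher, 478 lower), 117 with the replicate block and 375 with each array's upper quartile as a covariate (239 higher, 136 lower), an alternative chosen after seeing the data; leaving out 1 array gave 77 to 193. With only the 24 h arrays it was 148 (91 higher, 57 lower). At 6 h, 1197 became 769 with only the groups compared (366 higher, 403 lower), 4540 with array weights, 7 at 1.5-fold and 2186 with the covariate, and 629 to 1354 without 1 array. The 237 changes became 413 with loess, 382 with quantile normalization, 130 with only the groups compared, 2374 with weights, 0 at 1.5-fold and 659 with the covariate, and 138 to 256 without 1 array. At 1 h each alternative gave 0. Same-numbered PTHrP and PTH arrays of 24 h correlated at 0.11, -0.31 and 0.07 after group means were removed. Between PTH and untreated arrays of 24 h the values were 0.26, 0.292 and -0.041, and between PTHrP and untreated arrays 0.177, -0.148 and 0.089. The labels do not say whether replicate numbers pair arrays, and these correlations cannot decide it. Reversed, all without passing, were Crem (-0.0219) and Zfp185 (0.0443) at 24 h with all probe sets averaged, and PTH against untreated for Ccl2 with quantile normalization (0.016) and weights (0.0042). Leaving out 1 array also turned the sign of 4 differences that did not pass: Irgm1 (-0.0281 without PTHrP replicate 2 and -0.0105 without PTH replicate 2, to 0.102), Zfp185 (-0.201 to 0.0282, the highest without PTHrP replicate 3), PTH against untreated for Ccl2 (-0.106 to 0.11, with 0.007 without PTH replicate 3) and PTHrP against untreated for Pth1r (-0.113 to 0.0045). The cause was not tested. Dim genes such as Dmp1, Slc12a1 and Tnfsf11 lie near background, where RMA values understate differences.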

Other observations

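Some genes outside the lists were singled out after their values were seen. Serine proteases of the first complement component were both higher with PTHrP at 24 h. C1s1 read 9.71, 9.80 and 9.80 with PTHrP, against 9.21, 9.04 and 9.22 with PTH and 9.84, 9.85 and 9.79 in untreated cells, a difference of 0.61 ± 0.07 (limma adjusted p = 3.2e-05). C1ra read 10.11, 10.08 and 10.22 with PTHrP, against 9.89, 9.66 and 9.81 with PTH (difference 0.35 ± 0.08, limma adjusted p = 0.018), and was lost without PTHrP replicate 3 or PTH replicate 2 or 3, and with fewer arrays in the fit. At 6 h, C1s1 had been lower with PTHrP, with a difference of -0.26 ± 0.07, and its change of 0.87 ± 0.10 between times passed (limma adjusted p = 6.4e-05). Sod2, the mitochondrial superoxide dismutase, turned in the same way: it read 11.36, 10.98 and 11.33 with PTHrP, against 11.71, 12.01 and 11.85 with PTH at 6 h, and 10.79, 10.62 and 10.62 with PTHrP, against 10.27, 10.22 and 10.23 with PTH at 24 h. Its 24 h call was lost without PTHrP replicate 1 or PTH replicate 2 or 3.

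Tmem119, a membrane protein of osteoblasts, read 10.12, 10.38 and 10.56 with PTHrP, against 9.90, 9.70 and 9.53 with PTH and 11.02, 10.96 and 11.11 in untreated cells, and differed by 0.64 ± 0.10 at 24 h and by 0.72 ± 0.10 at 6 h. Tnfrsf19, a TNF receptor family member of mesenchymal cells, differed by 0.51 ± 0.09 at 24 h. Both passed in all 6 fits that left out 1 array, and both were lost when only the 6 compared arrays were fitted (limma adjusted p = 0.0528 and 0.0583).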
